A study of Rattus norvegicus with 6 samples.

Results

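The peroxide and superoxide removing enzymes described here are 10 genes: the glutathione peroxidases Gpx1, Gpx2, Gpx3 and Gpx4, the superoxide dismutases Sod1, Sod2 and Sod3, catalase (Cat) and the peroxiredoxins Prdx5 and Prdx6. They were chosen by name, and every array probe whose transcript accession belongs to one of them was taken, which gave 18 probes for the 10 genes among 61537 probes and 15645 named genes in all. Gene expression was measured in whole renal cortex of 6 male Sprague-Dawley (Crl:CD(SD)) rats bought at 5 weeks of age, with 1 single-colour array per animal. The control group was 3 rats given water for 4 weeks. The treated group was 3 rats given potassium bromate, an oxidising compound toxic to the kidney, at 100 mg/kg/day for 4 weeks. All 6 animals had the same basal diet and tap water, and the labels used here do not give the route of dosing.

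Superoxide dismutases turn superoxide into hydrogen peroxide, with copper and zinc (Sod1 in the cytosol, Sod3 outside the cell) or manganese (Sod2 in mitochondria) at the active site. Hydrogen peroxide is then removed by catalase in peroxisomes, by glutathione peroxidases, which in the 4 members here carry selenocysteine, and by peroxiredoxins. The proximal tubule of the kidney is rich in peroxisomes and mitochondria and is the main source of the Gpx3 protein of blood plasma. Gpx2 is best known from the lining of the gut and is a target of NRF2, a transcription factor of the oxidative stress response.

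Of the 10 genes, 1 rose (Gpx2), 2 fell (Cat and Gpx3) and 7 did not pass. Among all 27506 genes tested, 6.87% rose and 7.59% fell, 14.5% in all. A gene is said to have risen or fallen where its adjusted p in limma (Benjamini-Hochberg, over all genes tested) was below 0.05. The median difference was -0.10 for the 10 genes and -0.02 for all genes tested. Of the 10 differences 8 were negative, against 14580 of 27506 among all genes tested, and several of the 8 were smaller than their standard error. The values of the 3 water and 3 bromate arrays did not overlap in 5 of the 10 genes, against 41.0% of all genes tested. Each level is the log2 signal after subtraction of that array's 75th percentile, and group levels are given as mean ± SD. A difference is the bromate mean less the water mean, with its standard error, and n = 3 in both groups. A level is that of 1 probe and is not set against the level of another probe. All 18 probes were well above background on all 6 arrays, and none was saturated or an outlier.

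On the arrays 57.9% to 63.1% of probes were well above background. 1 slide carried water replicate 1 by itself, and a second slide carried the remaining 5 arrays. Markers of the convoluted proximal tubule were present on all arrays (12 of 12 measured), as the tissue label says. Signal sums of marker lists, in units of the array's 75th percentile, separated the groups for several cell types. The 12 convoluted tubule markers summed to 1295 to 1349 on the water arrays and 928 to 1025 on the bromate arrays, and 4 of them fell. For the thick limb and distal tubule, the 8 measured markers summed to 521 to 724 and 161 to 211 (7 fell), and the 9 markers of tubule injury to 35.5 to 45.0 and 279 to 365 (4 rose). Macrophage markers summed to 31.3 to 35.0 and 36.6 to 58.1 (2 of 11 rose), and markers of vessels to 54.4 to 74.2 and 76.1 to 115 (1 of 10 rose and 1 fell). Neutrophil markers summed to only 0.509 to 0.668 and 0.743 to 1.4 (1 of 4 rose). The marker that rose, Csf3r, was well above background on 3 of 3 bromate arrays but only 1 of 3 water arrays. It entered the test through the bromate arrays, so its rise has no firm size. Of the 9 measured collecting duct markers 5 fell, and their median difference was -1.08. Their mean log2 level was 3.90 to 4.24 on the water arrays and 2.66 to 2.87 under bromate, while their sum overlapped (268 to 353 and 180 to 307), with the bright water channel gene Aqp2 at 0.40 ± 0.30. The sums of straight proximal tubule (0 of 10 called by limma), red blood cell (1 of 7 fell) and podocyte markers (1 of 6 fell) also overlapped between the groups. The red blood cell marker that fell, Slc4a1 (-1.59, adjusted p = 0.0113), is also counted among the fallen collecting duct markers. Differences of the remaining red blood cell markers ran from 0.13 to 0.62, and none passed. In whole tissue, fewer cells of a type and less RNA per cell cannot be told apart.

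**Figure D1:**
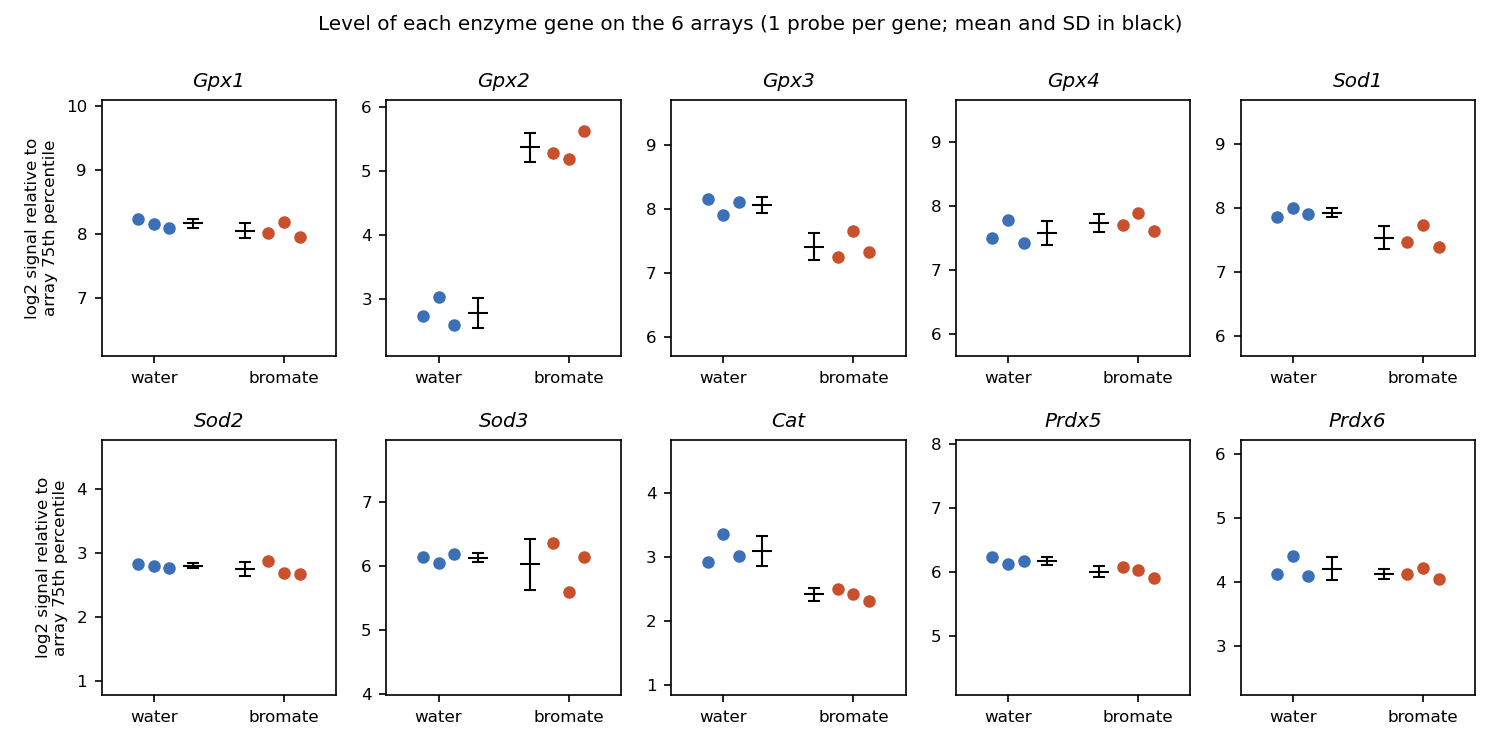
Log2 signal of each of the 10 genes relative to the array's 75th percentile, for the 3 water arrays (blue) and the 3 bromate arrays (orange), with mean and SD in black. Each panel spans 4 log2 units. Only Gpx2 has its bromate points far above its water points. The bromate points of Cat, Gpx3, Sod1 and, narrowly, Prdx5 lie below all their water points.

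Gpx2 rose 5.997-fold, the largest difference among the 10 genes. Its water values were 3.03, 2.59 and 2.73 and its bromate values 5.19, 5.63 and 5.28. Every bromate array lay more than 2 log2 units above every water array. The level went from 2.78 ± 0.23 to 5.37 ± 0.23, a log2 difference of 2.58 ± 0.17 (95% interval 2.17 to 3.00, adjusted p = 0.00171), and 0.731% of all genes tested had a larger difference in either direction. The other probes of Gpx2 gave 2.58 ± 0.18 (adjusted p = 0.00193) and 2.50 ± 0.20 (adjusted p = 0.00257). On the last of these probes the water values were -1.05, -1.66 and -1.49 and the bromate values 0.93, 1.38 and 0.97. The intervals of the 3 probes overlap widely, and no array of either group crossed into the other on any of them. The call held on leaving out any 1 array, with differences of 2.45 to 2.71 and adjusted p up to 0.012. With slide as a block it was 2.71 (adjusted p = 0.00572).

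The start of Gpx2 is shown because it holds a match to the core of the antioxidant response element, the DNA motif that NRF2 binds. In the RefSeq promoter table (build GRCr8, 250 bases before to 50 after each start), 8 of the 10 genes had an entry, with 10 promoters because Gpx4 has 3. The motif TGACNNNGC, searched on both strands, was in 3 of the 10 promoters, those of Gpx2, Sod2 and Prdx5. It was in 12.1% of all 33469 promoters. An AP-1 site (TGANTCA, both strands, no overlap with those matches) was in none of the 10 promoters and in 7.33% of all. Below, 80 bases before to 20 after the start are written 5′ to 3′ on the gene's strand, with the match in capitals. All 3 genes lie on the minus strand, at chr6:101230014-101230113 for Gpx2, chr1:50050149-50050248 for Sod2 and chr1:213532008-213532107 for Prdx5.
Gpx2: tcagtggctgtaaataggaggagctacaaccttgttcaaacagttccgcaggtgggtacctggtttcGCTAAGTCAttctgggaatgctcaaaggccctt
Sod2: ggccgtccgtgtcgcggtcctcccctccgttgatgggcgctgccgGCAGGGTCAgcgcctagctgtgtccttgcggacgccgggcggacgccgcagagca
Prdx5: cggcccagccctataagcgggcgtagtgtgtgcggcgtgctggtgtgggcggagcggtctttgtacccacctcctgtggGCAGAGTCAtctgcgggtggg
Each match is written here as its reverse complement, so the motif strand reads TGACTTAGC in Gpx2, TGACCCTGC in Sod2 and TGACTCTGC in Prdx5. The match begins 13 bases before the start in Gpx2, 35 before it in Sod2 and 1 before it in Prdx5. Among these 3 genes Gpx2 rose, while Sod2 (-0.06 ± 0.09) and Prdx5 (-0.17 ± 0.09) did not pass. A match of letters is a description of the sequence and does not show that a factor binds there.

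Catalase, the peroxisomal enzyme that splits hydrogen peroxide, fell to 62.2% of its water level. The water values of Cat were 3.36, 3.02 and 2.93 and the bromate values 2.43, 2.32 and 2.51, with no overlap. The level went from 3.10 ± 0.23 to 2.42 ± 0.10, a difference of -0.68 ± 0.14 (95% interval -1.02 to -0.35, adjusted p = 0.0286). Cat has 1 probe on the array, so no other probe bears on it. Leaving out 1 array gave differences of -0.77 to -0.55, and the call was lost without water replicate 2 or 3 or any 1 of the bromate arrays (adjusted p = 0.053 to 0.0941). It held without water replicate 1 and with slide as a block, both -0.55 (adjusted p = 0.0336).

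Gpx3, the secreted glutathione peroxidase, fell to 63.8% of its water level. Its water values were 7.90, 8.11 and 8.16 and its bromate values 7.65, 7.33 and 7.24. All 3 bromate arrays were below all 3 water arrays. The level went from 8.06 ± 0.13 to 7.41 ± 0.21, a difference of -0.65 ± 0.14 (95% interval -0.99 to -0.31, adjusted p = 0.0338), again from a single probe. Leaving out 1 array gave -0.77 to -0.57, and the call was lost without water replicate 2 or 3 or bromate replicate 2 or 3 (adjusted p = 0.0909 to 0.108). With slide as a block the difference was -0.72 (adjusted p = 0.0435). On leaving out 1 array the number of the 10 genes that fell ran from 0 to 2. Without water replicate 1 the 2 were Cat and Gpx3, and without bromate replicate 1 they were Gpx3 and Sod1. In the fit on all 6 arrays 4 of the 10 genes had an unadjusted p under 0.05, against 32.9% of all genes tested.

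Both falls went with lower signal of convoluted proximal tubule markers, whose sums are given above. The phosphate carrier gene Slc34a1 of that segment had a difference of -0.46 (adjusted p = 0.0196) and the glucose carrier gene Slc5a2 one of -0.92 (adjusted p = 0.0112), while the organic anion carrier gene Slc22a6 had -0.30 (adjusted p = 0.128). The list was not uniform, with 9 negative and 3 positive differences. The positive ones were those of the carrier genes Slc5a12 (0.35, adjusted p = 0.126), Slc7a7 (0.28, adjusted p = 0.477) and Slc4a4 (0.23, adjusted p = 0.246). The 10 straight proximal tubule markers had sums of 770, 479 and 416 for water replicates 1, 2 and 3 and of 419, 314 and 317 for the bromate replicates. By limma 0 of the 10 passed, while 5 had an unadjusted p under 0.05 (32.9% of all genes did). Cat was likewise highest on water replicate 1 and lowest on bromate replicate 2. Gpx3 instead had its lowest water value on replicate 1 (7.90) and its lowest bromate value on replicate 3 (7.24). Red blood cell markers, which bear on Cat because red cells hold much catalase, summed to 665 to 998 on the water arrays and 660 to 1155 on the bromate arrays. What part these cell types have in the falls of Cat and Gpx3 was not tested.

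Sod1, the copper and zinc enzyme of the cytosol, had lower values under bromate that did not pass. Its water values were 7.99, 7.90 and 7.86 and its bromate values 7.73, 7.38 and 7.47, with no overlap. The difference was -0.39 ± 0.11 (95% interval -0.67 to -0.10, unadjusted p = 0.0154, adjusted p = 0.0757), or 76.6% of the water level. The other probes of Sod1 gave -0.36 ± 0.11 (adjusted p = 0.0849) and -0.40 ± 0.12 (adjusted p = 0.0723), also without overlap. Sod1 passed without bromate replicate 1 (-0.49, adjusted p = 0.0455), and it lay near the threshold under quantile normalization (-0.32, adjusted p = 0.0499). It also passed with an intensity trend and robust variance (adjusted p = 0.0398) and with array weights (-0.41, adjusted p = 0.0321).

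Sod2, the manganese enzyme of mitochondria, had nearly the same level in both groups. Its water values were 2.79, 2.76 and 2.83 and its bromate values 2.68, 2.67 and 2.87, which overlap. The difference was -0.06 ± 0.09, and the 95% interval of the fold (0.828 to 1.12) held no change as large as that of Cat. Its second probe gave 0.04 ± 0.09 (adjusted p = 0.768).

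Sod3, the enzyme bound outside the cell and known from vessel walls, varied most among the bromate arrays. Its water values were 6.05, 6.19 and 6.14 and its bromate values 5.59, 6.14 and 6.37. Bromate replicate 1 was the lowest of the 6 arrays and bromate replicate 3 the highest. The SD was 0.40 under bromate and 0.07 under water, and the difference of -0.09 ± 0.21 (adjusted p = 0.783) turned to 0.13 without bromate replicate 1 (adjusted p = 0.489).

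Gpx1, the glutathione peroxidase of the cytosol and mitochondria, did not pass. Its water values were 8.15, 8.09 and 8.23 and its bromate values 8.19, 7.95 and 8.01, which overlap. The difference was -0.11 ± 0.10 (95% interval -0.34 to 0.13, adjusted p = 0.485), and -0.04 ± 0.11 on its other probe. Its sign depended on the scaling, since quantile normalization gave 0.07 ± 0.07 (adjusted p = 0.571). Gpx4, which reduces lipid peroxides in membranes, had water values of 7.79, 7.43 and 7.51 and bromate values of 7.89, 7.62 and 7.70. Its 3 probes, designed on more than 1 transcript accession, gave 0.16 ± 0.13, 0.18 ± 0.14 and 0.22 ± 0.12 (adjusted p = 0.438 for the first, which stood for the gene), and the groups overlapped on each.

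The peroxiredoxins did not pass either. Prdx5, a thioredoxin-dependent peroxidase of mitochondria, peroxisomes and cytosol, had water values of 6.12, 6.17 and 6.23 and bromate values of 6.03, 5.90 and 6.07. The groups did not overlap, but the difference was small, -0.17 ± 0.09 (95% interval -0.38 to 0.04, adjusted p = 0.219). Prdx6, which reduces peroxidised phospholipids with glutathione, had water values of 4.41, 4.09 and 4.12 and bromate values of 4.22, 4.05 and 4.12. Water replicate 1 was the highest of the 6 arrays, and the difference of -0.08 ± 0.12 (adjusted p = 0.69) was 0.03 without it.

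**Figure D2:**
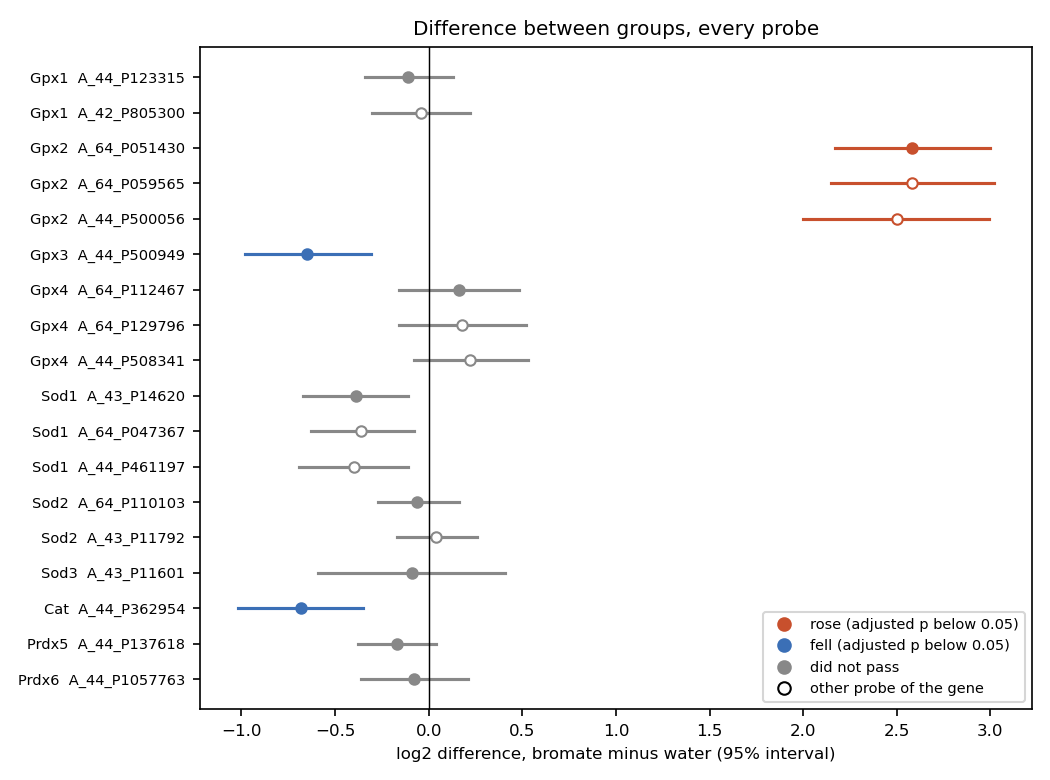
Log2 difference between bromate and water with its 95% interval for each of the 18 probes, filled where the probe stood for the gene. The 3 Gpx2 probes lie between 2.50 and 2.58, the single probes of Gpx3 and Cat near -0.7, and the 3 Sod1 probes between -0.40 and -0.36.

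Tested probe by probe, 5 of the 18 probes passed, the 3 of Gpx2 and those of Cat and Gpx3, against 14.8% of all 37781 probes tested (7.19% rose and 7.60% fell). The groups did not overlap for 41.1% of all probes tested. Probes of the same gene share their transcript and are not separate measurements of the animals. No gene had a probe past the threshold beside one that was not.

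Whether members of 1 family changed unequally was asked with the difference between the log2 levels of 2 genes within each array, which a constant shift of a whole array does not change. Of 10 such pairs, 6 had no overlap between the groups, and these were the 6 pairs of glutathione peroxidases. All of these except Gpx1 with Gpx4 hold Gpx2 or Gpx3, which were already called on the same arrays. The 6 pairs share genes and are not independent of each other. An exact 2-sided permutation test of 3 against 3 arrays cannot go below p = 0.1, and each of the 6 pairs reached that value (adjusted p = 0.167 over the 10 pairs), so none could pass. Gpx2 moved up relative to Gpx3 by 3.23 log2 units, relative to Gpx1 by 2.69 and relative to Gpx4 by 2.42. The Gpx2 minus Gpx4 values were -4.76, -4.84 and -4.78 under water, against -2.70, -1.98 and -2.42 under bromate. Gpx3 moved down relative to Gpx4 by 0.81 and relative to Gpx1 by 0.54. The shift of Gpx1 relative to Gpx4 was -0.27, with the 3 bromate values between 0.30 and 0.33 and the water values at 0.36, 0.66 and 0.72. Its groups overlapped with quantile normalization (shift -0.17) and with normexp (shift -0.14), while the other 5 glutathione peroxidase pairs had no overlap under either. The 3 superoxide dismutase pairs overlapped (p = 0.2, 0.4 and 1 in the exact permutation test), as did Prdx5 and Prdx6 (p = 0.5 in that test). With quantile normalization Sod1 and Sod2 did not overlap (shift -0.29, against -0.33 here).

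**Figure D3:**
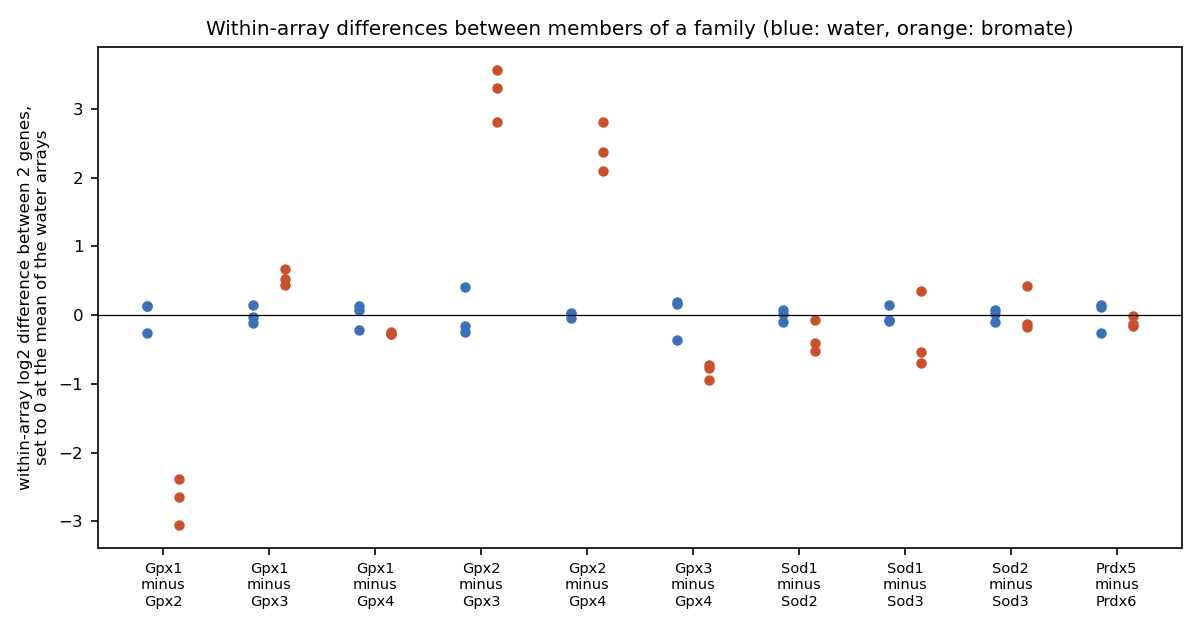
Difference between the log2 levels of 2 genes of a family within each array, set to 0 at the mean of the water arrays (blue, water; orange, bromate). The bromate points lie outside the range of the water points in the 6 glutathione peroxidase pairs, narrowly for Gpx1 minus Gpx4 and far for the 3 that hold Gpx2, and mix with them in the pairs of superoxide dismutases and peroxiredoxins.

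Over the 6 arrays, the named genes with the profile most like that of Gpx2, by the root mean square difference between profiles centred on their own mean among 11571 other named genes, were Lsmem2 (0.16), Rundc3a (0.17) and Stmn4 (0.18). Lsmem2 had water values of -3.78, -4.59 and -4.41 and bromate values of -1.77, -1.54 and -2.02. Stmn4 was not well above background on any water array. The profiles nearest to Gpx3 were those of G6pc1, the glucose-6-phosphatase gene of liver and kidney (0.04), Nap1l5 (0.06) and Scg5 (0.06). G6pc1 had water values of 7.33, 7.50 and 7.59 and bromate values of 7.01, 6.65 and 6.56, with a difference of -0.73 ± 0.15. Nearest to Cat were Ctf1, which encodes the cytokine cardiotrophin, the thyroid hormone receptor gene Thrb and Ush1c (each 0.05). Thrb had water values of 2.69, 2.41 and 2.29 and bromate values of 1.85, 1.66 and 1.77.

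Around the 10 enzymes, most genes that reduce or regenerate peroxidases and thiols did not pass, and none of the other peroxidases on the list did. Of 26 measured genes of the peroxiredoxin, thioredoxin and glutathione cycle, 3 rose, 3 fell and 20 did not pass, with a median of -0.18. Among all genes tested 6.87% rose and 7.59% fell, and these shares are the background for the count of each list below. Srxn1, which restores overoxidised peroxiredoxins, rose 4.504-fold, from water values of 0.98, 0.96 and 0.96 to bromate values of 3.38, 2.77 and 3.26. Its second probe gave 1.25 ± 0.21 (adjusted p = 0.0181), against 2.17 ± 0.17 for the first. The thioredoxin reductase gene Txnrd1 rose 1.64-fold (0.72 ± 0.14) and the glutaredoxin gene Glrx3 1.27-fold (0.34 ± 0.08). Other probes of Txnrd1 gave smaller differences of 0.49 ± 0.13 (adjusted p = 0.055), 0.50 ± 0.12 (adjusted p = 0.0487) and 0.50 ± 0.18 (adjusted p = 0.115). Txnip, an inhibitor of thioredoxin, was 1.77-fold lower (-0.83 ± 0.11), the mitochondrial NADPH-forming transhydrogenase gene Nnt 1.51-fold lower (-0.59 ± 0.12) and the selenium-containing methionine sulfoxide reductase gene Msrb1 1.42-fold lower (-0.51 ± 0.10). The peroxiredoxins outside the 10 genes did not pass: Prdx1 had a difference of 0.38 ± 0.14 (adjusted p = 0.123), Prdx2 of 0.08 ± 0.08, Prdx3 of -0.12 ± 0.08 and Prdx4 of 0.21 ± 0.13. Of these 6 changed genes, Srxn1 and Txnip kept their call on leaving out any 1 array. The count that rose was 1 to 2 and the count that fell 1 to 3 on leaving out 1 array.

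Genes of selenium supply and selenocysteine insertion, on which the glutathione peroxidases depend, had a median of -0.29, with 0 risen by limma, 4 fallen and 8 not passing of 12. At an unadjusted p under 0.05 1 was higher and 6 were lower, 7 of 12 in all, against 32.9% of all genes tested. Sephs2, which makes the selenium donor, was 1.52-fold lower, with water values of 4.45, 4.37 and 4.43 and bromate values of 3.79, 3.92 and 3.74. Its other probe gave a larger fall of -1.10 ± 0.14 (adjusted p = 0.00968), so the size of the fall depends on the probe. Eefsec, the elongation factor for selenocysteine, was 1.503-fold lower (-0.59 ± 0.09), and Lrp2, the tubule receptor that takes up selenoprotein P and many other proteins, 1.86-fold lower (-0.90 ± 0.09). Lrp2 is also among the convoluted tubule markers, whose sum was lower. Sepsecs, the last enzyme of selenocysteine synthesis on its tRNA and named outside the rule after its value was seen, had a difference of -0.40 ± 0.08 (adjusted p = 0.0294). The other Sepsecs probe gave -0.50 ± 0.15 and did not pass (adjusted p = 0.0743). Sephs2 and Lrp2 kept their call on leaving out any 1 array, and the count that fell was 2 to 4. Selenop, the gene of the selenium carrier, did not pass (-0.33 ± 0.17, adjusted p = 0.241).

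Of 15 measured genes of copper, zinc and manganese supply to the superoxide dismutases, 2 rose, 1 fell and 12 did not pass. Ccs, the copper chaperone of Sod1, was 1.30-fold lower (-0.38 ± 0.09, adjusted p = 0.0471), close to the difference of -0.39 ± 0.11 seen for Sod1 itself, and it lost its call on leaving out any 1 array (adjusted p up to 0.133). The metal carrier gene Slc39a14 rose 2.11-fold (1.08 ± 0.19) and the copper carrier gene Slc31a2 1.73-fold (0.79 ± 0.17). On leaving out 1 array the count that rose was 0 to 2 and the count that fell 0 to 1. With the mean of each gene's probes 0 rose, and the second probe of Slc31a2 gave 0.44 ± 0.16 (adjusted p = 0.114).

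Among 26 measured genes of oxidases that make superoxide or hydrogen peroxide and of their subunits and partner proteins, 2 rose, 2 fell and 22 did not pass, with a median of -0.11. The peroxisomal hydroxyacid oxidase gene Hao2 was 1.76-fold lower, with water values of 7.80, 7.93 and 7.72 and bromate values of 7.03, 6.95 and 7.03, and kept its call on leaving out any 1 array. The D-amino-acid oxidase gene Dao was 1.58-fold lower (-0.66 ± 0.16) and lost its call on leaving out any 1 array (adjusted p up to 0.126). Ero1a, which passes electrons to oxygen in the endoplasmic reticulum, rose 1.59-fold (0.67 ± 0.10), and the small GTPase gene Rac1 1.29-fold (0.37 ± 0.08). Subunits of the phagocyte NADPH oxidase and the kidney oxidase gene Nox4 did not pass, with differences of 0.12 for Cybb, -0.01 for Cyba and 0.12 for Nox4. The count that rose was 0 to 2 and the count that fell 1 on leaving out 1 array.

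Of 23 genes of peroxisome import and biogenesis, 0 rose by limma, 4 fell and 19 did not pass, with a median of -0.18. By the same test 7.59% of all genes fell. Of the 23 differences 69.6% were negative, against 14580 of 27506 among all genes tested. At an unadjusted p under 0.05 0 were higher and 6 were lower, against 32.9% of all genes tested in either direction. Pex7 (-0.54 ± 0.09) and Pex5 (-0.40 ± 0.09), the import receptors for peroxisomal proteins, fell, as did Ppargc1a (-0.47 ± 0.12), a coactivator for mitochondrial genes. On leaving out 1 array 0 to 1 of the 23 fell. Of 23 genes of the mitochondrial matrix and respiratory chain 1 rose (Cs, 1.42-fold), 2 fell (Idh2, 1.44-fold, and Sdhb, 1.27-fold) and 20 did not pass, with a median of -0.20. On leaving out 1 array 0 fell by limma. In the fit on all 6 arrays 8 of the 23 were lower and 1 was higher at an unadjusted p under 0.05, against 32.9% of all genes, and 16 had no overlap between the groups, against 41.0% of all genes. The other probe of Cs gave 0.26 ± 0.10 (adjusted p = 0.137).

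The list of regulators of antioxidant transcription and their enzyme targets had a median of 0.31. Among its 17 genes 3 rose, 1 fell and 13 did not pass. The rises were in Hmox1 (4.34-fold, 2.12 ± 0.24), which encodes haem oxygenase, Gstp1 (3.39-fold, 1.76 ± 0.34), a glutathione transferase gene, and Maff, a partner of NRF2. Only Maff of these is a regulator. Among the water arrays only 1 of 3 read Maff well above background, against 3 of 3 under bromate, so its difference (1.68 ± 0.23, and 0.71 with normexp) has no firm size. Foxo1, a transcription factor gene, fell (-0.37 ± 0.08). The gene of NRF2 itself, Nfe2l2, had water values of 4.05, 3.93 and 3.78 and bromate values of 4.27, 4.26 and 4.31. The probe that stood for Nfe2l2 had a difference of 0.36 ± 0.10 and did not pass (adjusted p = 0.0571). Tested probe by probe, the other Nfe2l2 probe gave 0.37 ± 0.08 and passed (adjusted p = 0.0379). Keap1, the gene of the NRF2 repressor, had -0.27 ± 0.10 (adjusted p = 0.126). Hmox1 kept its call on leaving out any 1 array, and the count that rose was 2 to 4.

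**Figure D4:**
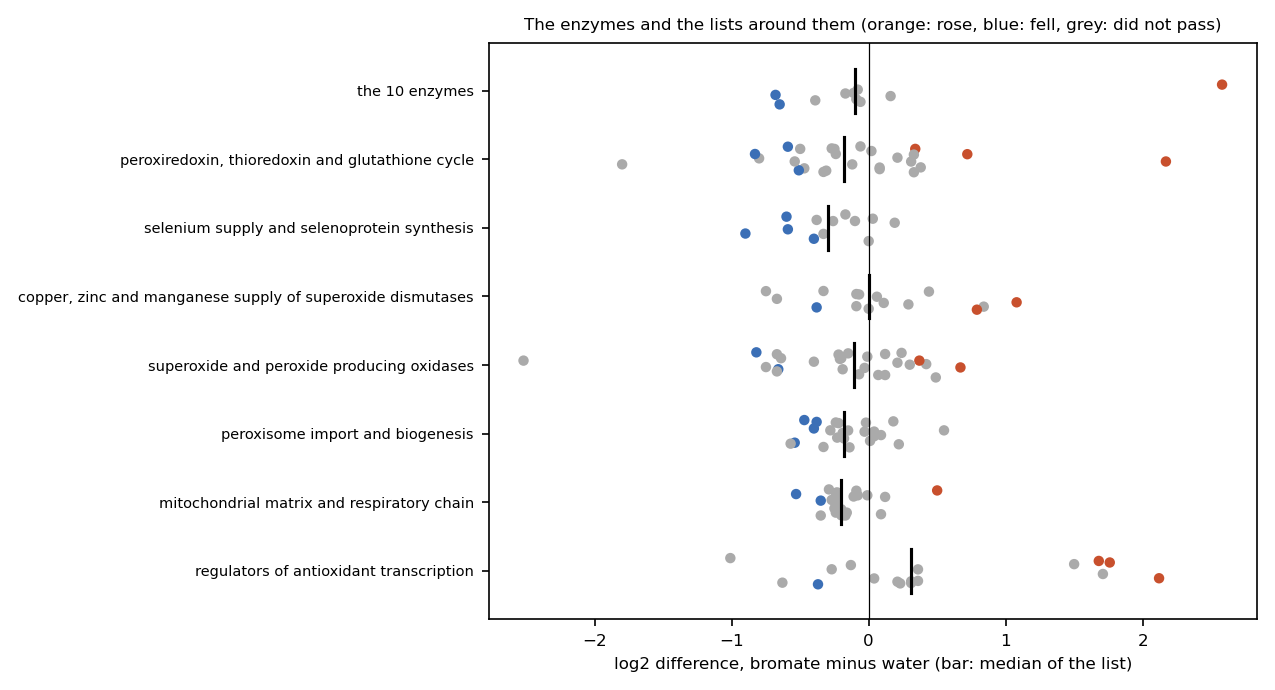
Log2 difference of each of the 10 enzyme genes and of each gene in the 7 lists around them, with a bar at each list's median (orange, rose; blue, fell; grey, did not pass). Gpx2 stands at 2.58 with Srxn1 (2.17) and Hmox1 (2.12) as the nearest called genes, while Cat and Gpx3 lie among the falls of the selenium and peroxisome lists.

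Over all lists, with each gene once, 11 of 142 measured genes rose, 17 fell and 114 did not pass, with a median of -0.15. Among all genes tested 6.87% rose and 7.59% fell. On leaving out 1 array the counts ran from 4 to 10 for the rises and from 4 to 9 for the falls. Of the 28 genes called, 7 kept their call on leaving out any 1 array: Srxn1, Hmox1, Txnip, Sephs2, Lrp2, Hao2 and Maff, the last read well above background on 1 of 3 water arrays. The others reached an adjusted p of up to 0.135.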

How the data were processed

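Cy3-labelled RNA was read on Agilent single-colour arrays with Feature Extraction 10.7, per the submitters' processing notes, on a design annotated to rn4, per the file headers. The deposited scanner files hold a processed intensity per spot, background-subtracted but not scaled between arrays, and raw median intensities. The authors' deposited value matrix holds a linear ratio whose scaling is not stated. It equalled processed signal over each array's 75th percentile to within 0.417% for values of at least 0.05, with column medians of 0.102 to 0.105.

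Values here are log2 processed intensity minus log2 of the array's 75th percentile. Controls and spots with outlier flags were not used. Probes had to be well above background on 3 or more of the 6 arrays. The brightest probe on average stood for a gene, and 28206 of 61537 probes had a symbol by accession in the RefSeq gene annotation (GRCr8). Groups were compared with lmFit and eBayes in limma 3.58.1 (R 4.3.3), tested on simulated data, with Benjamini-Hochberg adjustment. The number of arrays limits the precision. No term for slide was fitted, because water replicate 1 was alone on its slide.

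The 10 genes, the lists, the markers and the rule for named genes (up to 3 largest rises and falls per list, 3 nearest profiles) were chosen with earlier results of these data known. Genes outside the rule, such as Prdx1 to Prdx4, Nfe2l2, Keap1, Selenop and Nox4, were named for their role. Alternatives covered scaling, background correction, the value table, filters, probes, variance model, slide, replicate number and each array left out. The values of 1 listed gene are not reported here.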

Additional observations from a re-analysis of the deposited data

How the results depend on the processing

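Gpx2 rose under all 19 alternatives, by 2.45 to 2.71 (adjusted p up to 0.0317). Cat (-0.77 to -0.55) and Gpx3 (-0.77 to -0.51) kept their direction under all 19 and their call under 12 and 13. Some of the 19 nearly repeat another fit, as with the value table or with outlier spots kept. These counts are therefore not independent support. The count of the 10 genes that fell, 2, was 0 by limma without the filter on dim probes, which adds genes to the adjustment, 0 with the replicate block and 0 to 2 on leaving out 1 array. The count of probes past the threshold, 5, was 3 without that filter, 3 with the replicate block, 8 with normexp, with intensity trend and with array weights, and 3 to 5 on leaving out 1 array. Of the listed genes, 11 rose and 17 fell, against 4 and 4 without the filter, 5 and 3 with the replicate block, and 4 to 10 and 4 to 9 on leaving out 1 array. With slide as a block 9 fell, and with intensity trend or array weights 26. Beyond the adjustment, the cause was not tested.

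With the replicate block Cat had an adjusted p of 0.0782 and Gpx3 of 0.112. Deviations of same-numbered arrays correlated at -0.095 to 0.07, and not every array correlated best with its own number. Such correlations, from 3 arrays per group, cannot show whether same-numbered arrays share more than a number. Signs turned only where neither fit passed. The Gpx1 difference was 0.07 with quantile normalization and 0.09 with normexp, and that of its other probe 0.13 and 0.15 there and from -0.11 to 0.02 on leaving out 1 array. On leaving out 1 array Prdx6 ran from -0.13 to 0.03 (0.03 with slide as a block), Sod3 from -0.26 to 0.13, and the other probe of Sod2 from 0 to 0.10 (0 with slide as a block, -0.01 with normexp). Naming probes from a gene name column was not run. The fit with slide as a block is the fit without water replicate 1.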

Other observations

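Besides Sod3, a pair of glutathione peroxidase genes outside the 10 had their lowest value on bromate replicate 1, chosen after the values were seen. Gpx8, an enzyme of the endoplasmic reticulum, had water values of 0.00, 0.05 and 0.14 and bromate values of -0.70, 0.08 and 0.10. Gpx7, also of the endoplasmic reticulum, had water values of -0.29, -0.09 and -0.35 and bromate values of -0.84, -0.36 and -0.33. Pdgfrb, a gene of cells around vessels, had water values of 0.19, 0.44 and 0.31 and bromate values of -0.02, 0.77 and 0.73. None of these differences passed, with adjusted p of 0.511 for Gpx8, 0.314 for Gpx7 and 0.623 for Pdgfrb.

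Gclc, which makes the first step of glutathione synthesis, spread over water values of 8.02, 6.18 and 3.99. Its difference of -1.80 ± 1.04 did not pass (adjusted p = 0.284). The acyl-CoA oxidase gene Acox2 read -1.01, -2.18 and -4.04 on the 3 water arrays, and was well above background on only 1 of the 3 bromate arrays, so no difference is given. Both genes were picked for this spread, and both were highest on water replicate 1, as was the sum of the straight proximal tubule markers.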
